A study of Solanum lycopersicum with 14 samples.

Results

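Transcripts at the onset of ripening were compared within 2 tomato (Solanum lycopersicum) cultivars, Ailsa Craig (AC) and HG6-61, after the later ripening of HG6-61 was allowed for. The onset side was AC at 35 days after flowering (DAF) and HG6-61 at 42 DAF. The side before onset was AC at 28 DAF and HG6-61 at 35 DAF, so each onset library was paired with the preceding stage of its own cultivar. These are 4 of the 14 libraries of the series, which sampled fruit pericarp of both cultivars at 7 stages with 1 library for each cultivar and stage. Flowers were tagged at anthesis, fruits came from 5 plants of each genotype at each stage, and their pericarp was pooled, with no treatment. The cultivars were grown in one greenhouse. Each cultivar therefore served as the replicate of the other, and the p-values below measure how far 2 different genotypes behaved alike, not the spread between fruits of one genotype.

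Tomato is a climacteric fruit. A burst of the gaseous hormone ethylene, made from methionine through S-adenosylmethionine and 1-aminocyclopropane-1-carboxylate, accompanies the switch from green to red fruit, together with transcription factors such as the MADS-box protein RIN. During this switch chlorophyll is lost, lycopene accumulates through the carotenoid pathway, pectin and hemicellulose of the cell wall are taken apart, and aroma volatiles form from fatty acids and amino acids.

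The libraries compared held 4221600 (AC 28 DAF), 4277327 (AC 35 DAF), 1461817 (HG6-61 35 DAF) and 2120556 (HG6-61 42 DAF) reads on genes. HG6-61 at 35 DAF was the shallowest of the 14, and 3 reads in it equal 2.16 CPM (a gene's reads after each library is scaled to 1000000 reads, with TMM factors). Where a gene had no read in a library, a fold change is given as a lower bound against the level of 3 reads in that library, which covers counting error alone. Symbols were taken from the Arabidopsis gene that the authors' tables pair with each tomato gene, or from the paper, and roles are those known in Arabidopsis. The files place genes on chromosomes of the SL2.40 assembly without positions, and chromosome 0 holds sequence not placed on a chromosome. CPM values compare 1 gene between libraries, not genes with each other.

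Known ripening genes are described first. The alignment had been chosen with their levels known, so their direction is fixed by that choice and supports nothing. Every gene below was compared under the same alignment. That choice therefore also favours the direction and the p-value of other genes that move with these, ripening genes among them. RIN (Solyc05g012020.2, chromosome 5) stood at 52.9 CPM in AC at 28 DAF and 692 at 35 DAF, and at 8.62 CPM in HG6-61 at 35 DAF and 767 at 42 DAF. The gene of phytoene synthase 1 (Solyc03g031860.2), which makes the first carotene, stood at 691 and 7650 CPM in AC and at 96.3 and 4051 CPM in HG6-61. AP2 (Solyc03g044300.2), a transcription factor of the AP2 family, stood at 48.1 and 355 CPM in AC and at 63.2 and 445 CPM in HG6-61. For these 3 genes both onset libraries lay above both libraries before onset. The labels give AC at 35 DAF as mature green and HG6-61 at 42 DAF as breaker, so that the 2 onset libraries carry different stage labels although these markers were high in both, and HG6-61 at 35 DAF carries the mature green label of AC at 35 DAF with markers at the level before onset.

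Over all genes, the change in the AC pair and the change in the HG6-61 pair were set side by side. A gene was counted here if each pair had 1 library or more with 10 reads, which held for 14030 genes. Of these, 577 were at least 2-fold higher in both pairs (4.11%) and 938 at least 2-fold lower in both (6.69%), measured on CPM with 0.5 added. With library totals in place of TMM factors the numbers were 448 and 1169, and on the deposited RPKM 451 and 1092. In the AC pair 1940 genes were higher and 2473 lower by this measure, and in the HG6-61 pair 2855 were higher and 2980 lower. Opposite changes were also frequent, with 366 genes higher in the AC pair and lower in the HG6-61 pair (2.61%) and 582 genes the other way (4.15%). With library totals these numbers were 202 and 843, and on the deposited RPKM 176 and 840. Of the genes that changed at least 2-fold in both pairs, 61.5% changed in the same direction, and at a 4-fold limit 81.9% did. These counts have no replicate check within a cultivar.

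**Figure D1:**
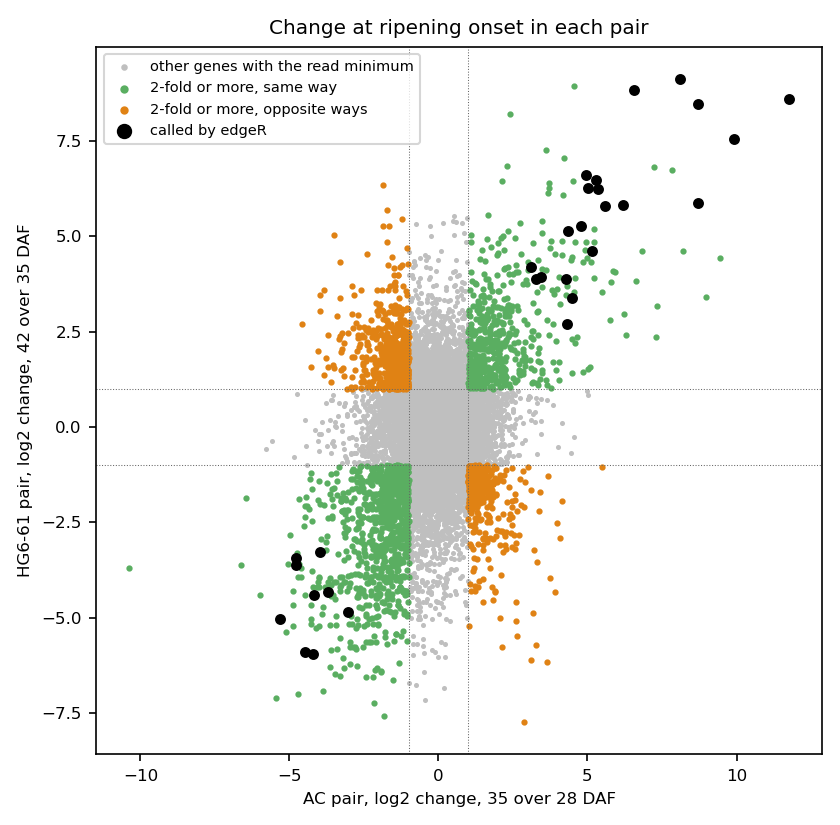
Change of each gene at ripening onset, as log2 of the ratio of CPM plus 0.5, in the AC pair (x axis) and the HG6-61 pair (y axis). Green points changed at least 2-fold in the same direction in both pairs (577 higher, 938 lower), orange points in opposite directions (366 and 582), and black points are the 30 genes called by edgeR, which lie far out along the diagonal.

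A test over both cultivars was run with edgeR on the counts of all 14 libraries, with terms for aligned stage and for cultivar. The spread was estimated between the cultivars at each stage they share in this fit. Besides the stages before and at onset, these were 7, 14 and 21 DAF, and AC 42 DAF with HG6-61 49 DAF. A call required a p of less than 0.01 after Benjamini-Hochberg adjustment and a log2 fold change over 2 in size. Of 19182 genes tested, 21 were called higher at onset (0.109%) and 9 lower (0.0469%), or 21 and 20 with library totals in place of TMM factors. With limits of 0.05 for the adjusted p and 1 for the log2 fold change, called the wider threshold below, 109 genes were higher (0.568%) and 158 lower (0.824%), and 3026 genes had an unadjusted p under 0.05. In each of the 30 called genes the onset libraries did not overlap the libraries before onset, as was also so for 15.6% of the genes tested above and 22.0% below. The called genes with reads in all 4 libraries had log2 fold changes of 3.51 to 9.59 when higher (17 genes), and fell by 4.08 to 4.57 on the log2 scale when lower (5 genes). Summed over the 21 genes called higher, the level rose from 369 to 12580 CPM in AC and from 295 to 11060 CPM in HG6-61. Summed over the 9 genes called lower, it fell from 445 to 13.9 CPM in AC and from 239 to 8.46 CPM in HG6-61. The number of calls rested on every one of the 4 libraries. Without AC 28 DAF, HG6-61 35 DAF, AC 35 DAF or HG6-61 42 DAF, the fit called 10, 13, 8 and 11 genes higher and 12, 23, 1 and 0 genes lower. In the fit without each library in turn, 5 of the 21 higher genes stayed past both thresholds every time (Solyc04g074840.2, CER1, MSRB5, PMSR1 and Solyc10g080900.1), and none of the 9 lower genes did. A fit of the 4 libraries alone called 54 genes higher and 39 lower.

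**Figure D2:**
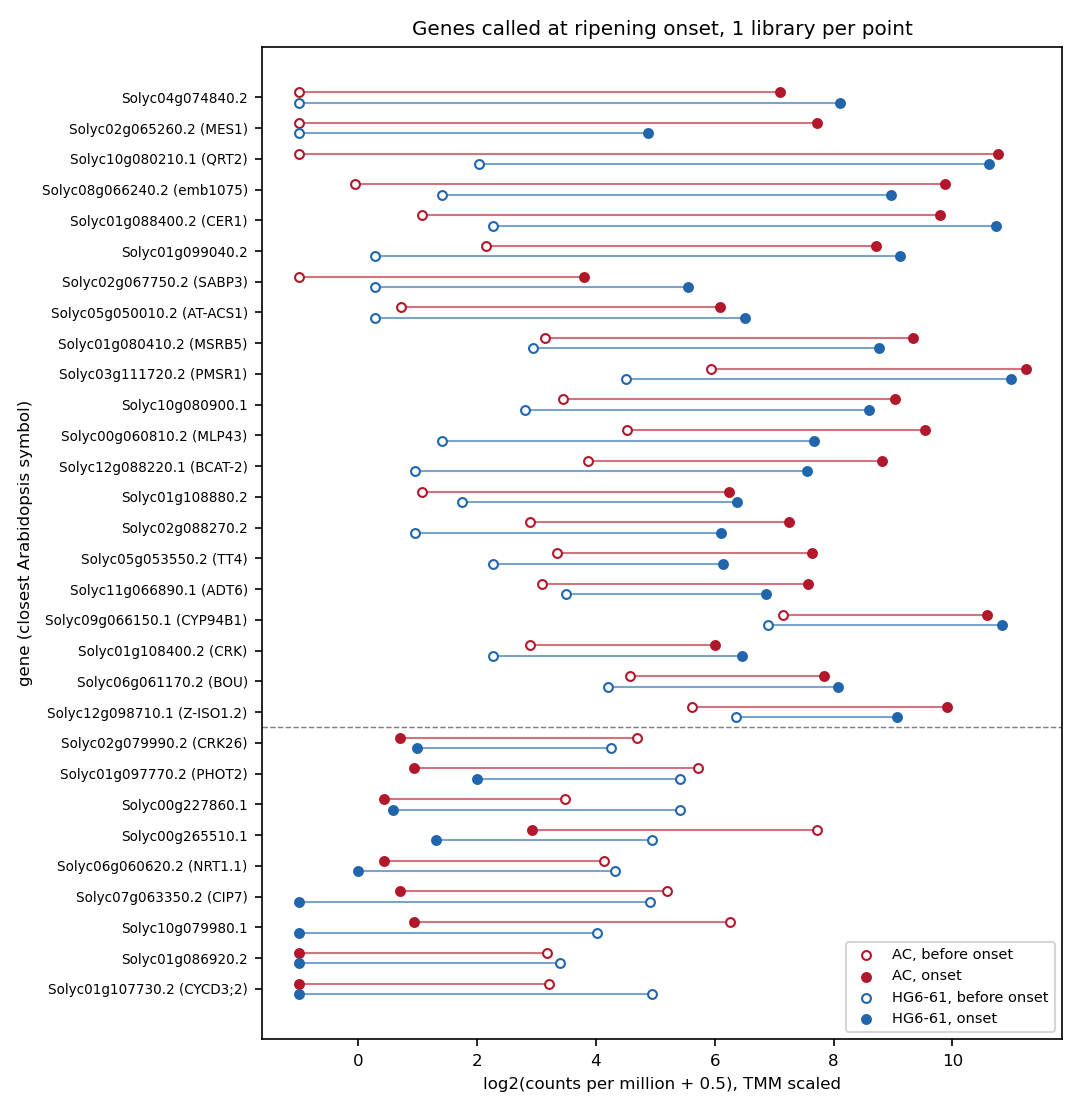
Level of the 30 called genes in the 4 libraries, as log2 of CPM plus 0.5, with open circles for the library before onset and filled circles for the onset library of AC (red) and HG6-61 (blue). Above the dashed line are the 21 genes called higher and below it the 9 called lower, and in every row both filled circles lie on the same side of both open circles. A point at the left edge marks 0 reads.

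Of the ethylene genes, 1 synthase was called higher at onset in both cultivars. Solyc05g050010.2 (AT-ACS1, chromosome 5), close to an Arabidopsis 1-aminocyclopropane-1-carboxylate synthase, had 5 reads in AC at 28 DAF and 237 at 35 DAF, and 1 read in HG6-61 at 35 DAF and 182 at 42 DAF. Its level was 1.16 and 67.4 CPM in AC and 0.719 and 90.6 CPM in HG6-61, with a log2 fold change of 6.11 (SE 0.64) and an edgeR adjusted p of 0.00403. Another synthase, Solyc01g095080.2 (AT-ACC2), stood at 5.08 and 1635 CPM in AC and at 23.7 and 591 CPM in HG6-61, and passed the wider threshold only (log2 fold change 6.22, edgeR adjusted p 0.0176). The synthase gene Solyc08g008100.2 (ATACS6), moved the other way, from 128 to 21.3 CPM and from 173 to 5.97 CPM, and fell at the wider threshold (adjusted p 0.0497). The synthase genes thus did not move together.

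The oxidase genes that the paper names, for the enzyme that releases ethylene, showed no shared direction. The oxidase gene Solyc02g036350.2 (EFE) stood at 103 and 344 CPM in the AC pair and at 68.3 and 56.3 CPM in the HG6-61 pair (adjusted p 0.492). The oxidase gene Solyc07g049530.2 (EFE) stood at 1313 and 631 CPM in AC and at 600 and 725 CPM in HG6-61 (adjusted p 0.776). ERF1 (Solyc02g077370.1), an ethylene response factor, stood at 22.4 and 6.54 CPM in AC and at 28.0 and 8.96 CPM in HG6-61, lower in both pairs without passing the test (adjusted p 0.214). Of the receptors, the ERS1-like gene Solyc09g075440.2 stood at 160 and 517 CPM in AC and at 45.3 and 485 CPM in HG6-61 (adjusted p 0.0940). The F-box gene Solyc07g008250.2 (FBL6), whose Arabidopsis counterpart acts in the removal of ethylene signalling proteins, rose at the wider threshold, from 25.2 to 73.4 CPM and from 24.4 to 114 CPM (adjusted p 0.0455). Of 44 ethylene genes tested, 1 was called higher and none lower. The wider threshold gave 3 higher (6.82%, against 0.568% of all genes) and 1 lower (2.27%, against 0.824%). Their median log2 fold change was 0.04, against -0.10 for all genes tested. With library totals in place of TMM factors these medians were -0.10 for the ethylene genes and -0.27 for all genes.

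Both methionine sulfoxide reductases among the calls were higher at onset. PMSR1 (Solyc03g111720.2, chromosome 3), a methionine sulfoxide reductase that repairs oxidised methionine in proteins, stood at 60.5 and 2405 CPM in AC and at 22.3 and 2028 CPM in HG6-61, which is 39.7-fold and 91.1-fold higher at onset (log2 fold change 5.81, SE 0.54, edgeR adjusted p 0.000934). MSRB5 (Solyc01g080410.2, chromosome 1), a methionine sulfoxide reductase of the B type, stood at 8.32 and 644 CPM in AC and at 7.19 and 435 CPM in HG6-61 (log2 fold change 6.11, adjusted p 0.000934). Both levels at onset lay far above both levels before it in either gene. SAHH1 (Solyc09g092380.2), which hydrolyses S-adenosylhomocysteine in the methionine cycle, lay just outside the threshold with an adjusted p of 0.0109, although it stood at 2126 and 35450 CPM in AC and at 1804 and 27390 CPM in HG6-61, 16.7-fold and 15.2-fold higher. Of the 17 methionine cycle genes tested, none was called and SAHH1 alone passed the wider threshold (5.88%, against 0.568% of all genes). Their median log2 fold change was 0.28.

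The cell wall group held some of the steepest rises. Solyc10g080210.1 (QRT2, chromosome 10), close to an Arabidopsis polygalacturonase that cuts pectin so that pollen grains can separate, had 0 reads in AC at 28 DAF and 6103 at 35 DAF, and 5 reads in HG6-61 at 35 DAF and 3164 at 42 DAF. Its level reached 1736 CPM in AC and 1575 CPM in HG6-61, at least 2510-fold higher in AC and 438-fold higher in HG6-61 (edgeR adjusted p 0.00589). 4 further wall genes rose at the wider threshold. Solyc09g010210.2 (GH9B1), close to an endoglucanase, stood at 6.70 and 1644 CPM in AC and at 4.31 and 511 CPM in HG6-61 (adjusted p 0.0140). The mannan hydrolase gene Solyc01g008710.2 had 3 reads in AC at 28 DAF (0.693 CPM) against 838 CPM at 35 DAF, and stood at 35.2 and 771 CPM in HG6-61 (adjusted p 0.0296). Solyc09g091430.2, whose closest Arabidopsis gene AT4G13710 encodes a pectate lyase, stood at 5.31 and 453 CPM in AC and at 6.47 and 36.3 CPM in HG6-61 (adjusted p 0.0358). The expansin Solyc06g051800.2 (EXPA4), of a family that loosens walls, stood at 131 and 1712 CPM in AC and at 10.8 and 873 CPM in HG6-61 (adjusted p 0.0413). Another expansin, Solyc06g076220.2 (EXPA6), fell from 42.5 to 12.2 CPM and from 43.1 to 4.48 CPM (adjusted p 0.0381). Over 84 loosening and degrading genes tested, 1 was called. At the wider threshold 5 were higher (5.95%, against 0.568% of all genes) and 1 lower (1.19%, against 0.824%). Another 78 passed neither, and the median log2 fold change was -0.10.

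Genes of cellulose synthesis lay on the lower side. All 11 tested had a log2 fold change under 0, with a median of -1.77 against -0.10 for all genes tested. None was called, and 1 fell at the wider threshold (9.09%, against 0.824% of all genes). This was Solyc05g005080.2 (TSD1), close to the endoglucanase KORRIGAN of Arabidopsis. It went from 187 to 15.1 CPM in AC and from 180 to 7.96 CPM in HG6-61 (edgeR adjusted p 0.0221).

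In the carotenoid pathway, the isomerase step lay among the calls. Z-ISO1.2 (Solyc12g098710.1, chromosome 12), close to the isomerase of zeta-carotene on the way to lycopene, stood at 48.5 and 964 CPM in AC and at 81.9 and 539 CPM in HG6-61, 19.9-fold and 6.58-fold higher (log2 fold change 3.51, SE 0.48, adjusted p 0.00893). With CRK (log2 fold change 3.67) and BOU (3.59) it was one of the 3 called genes nearest to the fold threshold, and no gene with an adjusted p under 0.01 lay inside that threshold. Z-ISO1.2 is not one of the 21 carotenoid genes taken from the paper, of which none was called and 2 rose at the wider threshold (9.52%, against 0.568% of all genes). These were phytoene synthase 1, given above (log2 fold change 4.07, adjusted p 0.0277), and geranylgeranyl diphosphate synthase GGPS2 (Solyc04g079960.1), which stood at 2.08 and 31.3 CPM in AC and at 2.16 and 45.3 CPM in HG6-61 (adjusted p 0.0152). GGPS1 (Solyc02g085700.1) stood at 52.7 and 141 CPM and at 48.9 and 122 CPM, and the desaturase Zds (Solyc01g097810.2) at 49.4 and 106 CPM and at 24.4 and 70.7 CPM. Both were at least 2-fold higher in each pair and did not pass the test (adjusted p 0.0750 and 0.163).

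Further genes of the paper's carotenoid list were less uniform. Pds3 (Solyc03g123760.2), a phytoene desaturase, stood at 97.5 and 243 CPM in AC and at 108 and 135 CPM in HG6-61. The isomerase CRTISO (Solyc10g081650.1) stood at 66.8 and 87.6 CPM in AC and at 28.7 and 77.7 CPM in HG6-61. Psy2 (Solyc02g081330.2), the second phytoene synthase, stood at 46.7 and 52.1 CPM in AC and at 42.4 and 35.3 CPM in HG6-61. Their adjusted p were 0.433, 0.300 and 0.987. DXS1 (Solyc01g067890.2), the entry to plastid isoprenoids, stood at 57.8 and 67.7 CPM and at 33.8 and 47.3 CPM. Pds1 and Pds2 are on the list too, but their closest Arabidopsis genes, AT1G06570 and AT3G11945, are not that of Pds3 (AT4G14210). Pds1 (Solyc05g041200.2) stood at 224 and 432 CPM and at 278 and 409 CPM. Pds2 (Solyc03g051810.2) went up in AC, from 9.24 to 22.5 CPM, and down in HG6-61, from 20.1 to 8.96 CPM. DXS2 (Solyc11g010850.1) had reads only in AC at 28 DAF among the 4 libraries (3.70 CPM).

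The cyclases and hydroxylases that draw on lycopene and its products passed neither threshold. LCY-b (Solyc04g040190.1), lycopene beta-cyclase, stood at 8.55 and 4.27 CPM in AC and at 14.4 and 0.498 CPM in HG6-61. LYC/NSY (Solyc06g074240.1) stood at 19.4 and 13.7 CPM and at 3.59 and 3.98 CPM, and LCY-e (Solyc12g008980.1) did not exceed 1.39 CPM in any of the 4 libraries. CrtR-b1 (Solyc06g036260.2), a carotene hydroxylase, stood at 64.0 CPM at onset in AC, 1.56-fold lower than before it, and at 104 and 71.2 CPM in HG6-61. The other hydroxylase gene CrtR-b2 (Solyc03g007960.2) stood at 39.7 and 80.5 CPM and at 23.7 and 34.8 CPM. CrtR-b (Solyc04g051190.2) stood at 15.3 and 5.12 CPM and at 11.5 and 11.5 CPM. CrtR-e (Solyc10g083790.1) stood at 8.09 and 5.40 CPM and at 9.34 and 5.48 CPM. Zep (Solyc02g090890.2), zeaxanthin epoxidase, stood at 45.3 and 29.0 CPM and at 25.2 and 23.9 CPM. The light signalling genes hp-1 (Solyc02g021650.2) and hp-2 (Solyc01g056340.2) stood at 126 and 156 CPM and at 7.85 and 9.96 CPM in AC, and at 114 and 133 CPM and at 8.62 and 4.98 CPM in HG6-61. None of these genes passed the test (adjusted p 0.231 for LCY-b, the lowest of them). Over the 21 genes, 11 fold changes lay above 0 and 10 below. Their median log2 fold change was 0.17, against -0.10 for all genes tested. With library totals in place of TMM factors these medians were -0.02 for the 21 genes and -0.27 for all genes.

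The flavonoid genes of the paper were mostly higher at onset than in the library before it. Summed over all 14, they stood at 473 and 1885 CPM in AC and at 163 and 1639 CPM in HG6-61. At 7 DAF the sum had been 1126 CPM in AC and 1132 CPM in HG6-61, above the level before onset. Of 12 members with the read minimum, 7 were at least 2-fold higher in both pairs (58.3%, against 4.11% of all genes) and none lower, and the median log2 fold change of the 14 tested was 2.35. Chalcone synthase CHS2 (Solyc05g053550.2), which makes the flavonoid skeleton, stood at 9.70 and 199 CPM in AC and at 4.31 and 70.2 CPM in HG6-61 and was called higher (log2 fold change 4.16, SE 0.58, edgeR adjusted p 0.00893). CHS1 (Solyc09g091510.2) stood at 5.31 and 132 CPM in AC, and in HG6-61 it had no read at 35 DAF and 42.8 CPM at 42 DAF, at least 19.9-fold higher (adjusted p 0.0200). CHI-like (Solyc05g052240.2) stood at 11.3 and 178 CPM and at 2.16 and 61.2 CPM (adjusted p 0.0176). The flavanone hydroxylase F3H (Solyc02g083860.2) stood at 22.0 and 222 CPM in AC and at 8.62 and 106 CPM in HG6-61 (adjusted p 0.0292), and the flavonol synthase FLS (Solyc11g013110.1) at 89.2 and 455 CPM and at 12.9 and 469 CPM (adjusted p 0.0278). These 4 rose at the wider threshold only, so that 5 of the 14 passed it (35.7%, against 0.568% of all genes). Of the 14, 3 had a log2 fold change under 0, the lowest being the isomerase CHI-1 (Solyc05g010320.2), at 10.2 and 8.53 CPM and at 19.4 and 0.498 CPM (adjusted p 0.391). Upstream of the pathway, ADT6 (Solyc11g066890.1), an arogenate dehydratase in the formation of phenylalanine, was called higher, at 8.09 and 190 CPM in AC and at 10.8 and 117 CPM in HG6-61 (adjusted p 0.00782).

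A further 6 of the calls on the higher side were genes of diverse enzymes and a carrier. CER1 (Solyc01g088400.2, chromosome 1), which acts in the formation of wax alkanes in Arabidopsis, had 7 reads in AC at 28 DAF and 3116 at 35 DAF, and 6 reads in HG6-61 at 35 DAF and 3406 at 42 DAF. This was 548-fold and 393-fold higher (log2 fold change 8.84, SE 0.71, adjusted p 0.000934). BCAT-2 (Solyc12g088220.1, chromosome 12), a branched-chain amino acid transaminase, stood at 14.1 and 451 CPM in AC and at 1.44 and 186 CPM in HG6-61 (adjusted p 0.00601). The decarboxylase emb1075 (Solyc08g066240.2, chromosome 8), which acts on serine in Arabidopsis, had 2 and 3282 reads in AC and 3 and 1004 reads in HG6-61 (0.462 and 934 CPM, and 2.16 and 500 CPM, adjusted p 0.00504). MES1 (Solyc02g065260.2, chromosome 2), an esterase of methylated hormones, had no read in either library before onset and 737 and 58 reads at onset, at least 303-fold higher in AC and 13.4-fold higher in HG6-61 (adjusted p 0.00782). CYP94B1 (Solyc09g066150.1), a cytochrome P450 that oxidises conjugated jasmonate, stood at 141 and 1538 CPM and at 119 and 1820 CPM (adjusted p 0.00589). BOU (Solyc06g061170.2), a mitochondrial carrier, stood at 23.3 and 228 CPM and at 17.96 and 269 CPM (adjusted p 0.00594).

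Of 26 volatile and fermentation genes tested, none was called and 1 rose at the wider threshold (0.568% of all genes did). Of 20 with the read minimum, 7 were at least 2-fold higher in both pairs (35.0%, against 4.11% of all genes) and 2 lower (6.69% of all genes were). The lipoxygenase Solyc01g099190.2 (LOX1), of a family that oxidises polyunsaturated fatty acids, stood at 1328 and 12110 CPM in AC and at 483 and 13760 CPM in HG6-61 (log2 fold change 4.01, adjusted p 0.0193). The alcohol dehydrogenase Solyc06g059740.2 (ATADH1) stood at 1594 and 6543 CPM in AC and at 964 and 4290 CPM in HG6-61 (adjusted p 0.0527). Another lipoxygenase, Solyc01g006540.2 (LOX2), stood at 38.6 and 717 CPM and at 2.16 and 350 CPM (adjusted p 0.0536). The lipoxygenases, ATADH1, SAHH1 and the genes given by their place in a list were chosen after their values were seen.

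The remaining calls on the higher side had varied roles. Solyc04g074840.2 (chromosome 4), whose closest Arabidopsis gene AT5G65380 belongs to the MATE family of transporters, had no read in either library before onset and 481 reads in AC at 35 DAF and 556 in HG6-61 at 42 DAF, at least 198-fold and 129-fold higher (adjusted p 0.000934). Solyc01g099040.2, close to AT5G03980, had 17 and 1481 reads in AC and 1 and 1110 reads in HG6-61 (adjusted p 0.00403). SABP3 (Solyc02g067750.2), a carbonic anhydrase that binds salicylic acid, had 0 and 47 reads in AC and 1 and 93 reads in HG6-61 (adjusted p 0.00601). MLP43 (Solyc00g060810.2, chromosome 0) stood at 22.4 and 741 CPM and at 2.16 and 204 CPM (adjusted p 0.00403). Solyc10g080900.1, close to AT3G55290, stood at 10.4 and 523 CPM and at 6.47 and 385 CPM (adjusted p 0.000934). Solyc01g108880.2, close to AT3G19000, stood at 1.62 and 75.1 CPM and at 2.87 and 82.1 CPM. Solyc02g088270.2, close to AT5G39530, stood at 6.93 and 151 CPM and at 1.44 and 68.2 CPM, and the kinase gene CRK (Solyc01g108400.2) at 6.93 and 64.0 CPM and at 4.31 and 87.1 CPM. Their adjusted p were 0.00403, 0.00630 and 0.00893.

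The 9 genes called lower included genes of light perception, growth and nitrate uptake. PHOT2 (Solyc01g097770.2, chromosome 1), a blue light receptor, stood at 52.0 CPM in AC at 28 DAF and 1.42 at 35 DAF, and at 42.4 CPM in HG6-61 at 35 DAF and 3.48 at 42 DAF, 36.5-fold and 12.2-fold lower at onset (adjusted p 0.00589). CIP7 (Solyc07g063350.2, chromosome 7), which promotes light-regulated genes in Arabidopsis, had 156 and 4 reads in AC and 41 and 0 reads in HG6-61, 31.7-fold and at least 19.8-fold lower (adjusted p 0.00601). CYCD3;2 (Solyc01g107730.2, chromosome 1), a D-type cyclin that drives entry into cell division, had 38 reads in AC at 28 DAF and 42 in HG6-61 at 35 DAF and none in either onset library, at least 10.3-fold and 20.2-fold lower (adjusted p 0.00601). NRT1.1 (Solyc06g060620.2, chromosome 6), a nitrate transporter and sensor, had 74 and 3 reads in AC and 27 and 1 reads in HG6-61 (adjusted p 0.00601). Onset levels lay below levels before onset in both cultivars for each of these genes.

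The other lower calls had between 0 and 25 reads in each onset library. Solyc01g086920.2, close to AT3G20820, had 37 and 0 reads in AC and 14 and 0 reads in HG6-61 (adjusted p 0.00893). Solyc10g079980.1, close to AT2G36780 of the glycosyltransferases, had 330 and 5 reads in AC and 22 and 0 reads in HG6-61 (adjusted p 0.00685). Solyc00g227860.1, close to the glycosyltransferase AT2G22590, had 46 and 3 reads and 59 and 2 reads (adjusted p 0.00782). The receptor-like kinase CRK26 (Solyc02g079990.2) had 110 and 4 reads and 26 and 3 reads (adjusted p 0.00893). Solyc00g265510.1, with no Arabidopsis match in the files, had 908 and 25 reads in AC and 42 and 4 reads in HG6-61 (adjusted p 0.00504). Just outside the threshold lay RALFL27 (Solyc02g065780.1), the iron transporter YSL1 (Solyc08g083060.2) and the homeobox gene ATHB13 (Solyc02g087840.2), with adjusted p of 0.0104, 0.0104 and 0.0108. Among 60 cell cycle genes tested, CYCD3;2 was the one called. The gene KRP1 (Solyc02g090680.2), for an inhibitor of cyclin-dependent kinases, fell with it at the wider threshold (together 3.33%, against 0.824% of all genes). KRP1 went from 11.1 to 0.569 CPM and from 35.9 to 0.498 CPM (edgeR adjusted p 0.0140).

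Of 736 transcription factors tested from the paper's list, none was called. At the wider threshold 6 rose (0.815%, against 0.568% of all genes) and 14 fell (1.90%, against 0.824%). Of 598 with the read minimum, 27 were at least 2-fold higher in both pairs (4.52%, close to the 4.11% of all genes) and 68 lower (11.4%, against 6.69%). RIN and AP2 rose at the wider threshold (log2 fold change 4.75 and 2.85, edgeR adjusted p 0.0200 and 0.0142), as did Solyc07g052960.1, close to AT3G49950, which stood at 20.3 and 647 CPM in AC and at 7.19 and 221 CPM in HG6-61 (adjusted p 0.0200). Another 2 genes of the ripening factor list were at least 2-fold higher in both pairs without passing the test. The FRUITFULL-like MADS-box gene Solyc06g069430.2 (FUL) stood at 42.3 and 429 CPM in AC and at 111 and 240 CPM in HG6-61 (adjusted p 0.0515), and the NAC gene Solyc10g006880.2 (NARS1) at 77.6 and 213 CPM and at 66.1 and 217 CPM (adjusted p 0.121). The second FRUITFULL-like gene, Solyc03g114830.2 (FUL), stood at 96.8 and 157 CPM in AC and at 404 and 85.6 CPM in HG6-61, and the SHATTERPROOF-like gene Solyc07g055920.2 (SHP1) at 119 and 290 CPM and at 192 and 139 CPM, so that for both genes the pairs pointed in opposite directions. HSFB2A (Solyc03g026020.2), a heat shock factor, stood at 142 and 339 CPM in AC and at 282 and 307 CPM in HG6-61 (adjusted p 0.457).

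**Figure D3:**
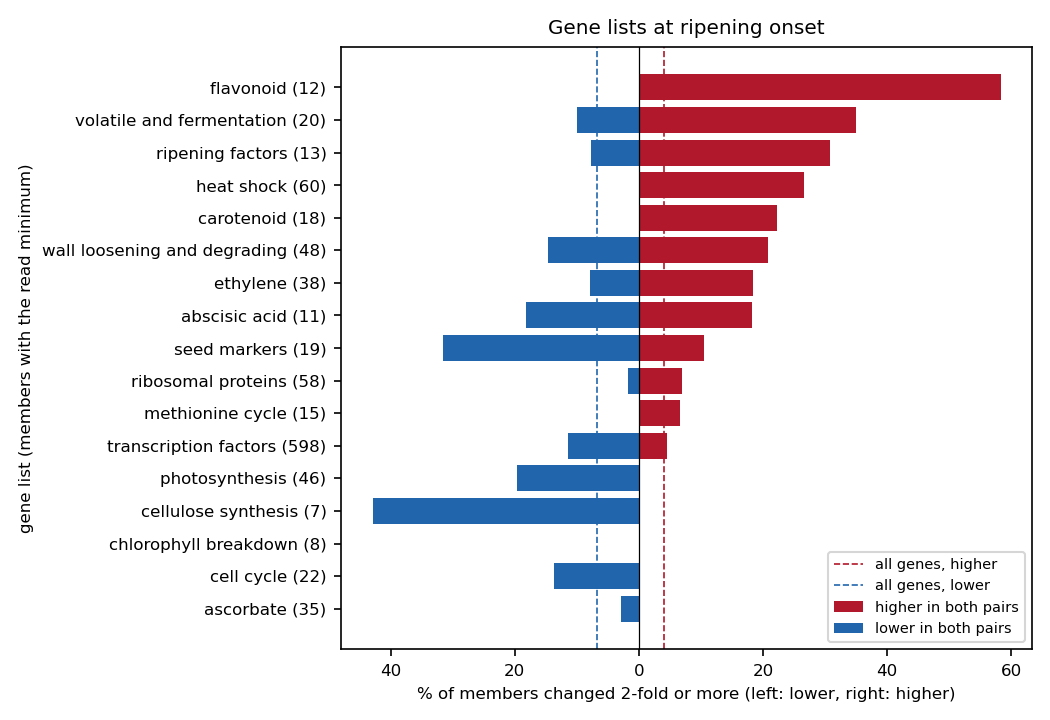
Share of each list's members with the read minimum (their number in parentheses) that were at least 2-fold higher in both pairs (red, to the right) or at least 2-fold lower in both (blue, to the left). Dashed lines mark the shares over all genes, 4.11% higher and 6.69% lower. Flavonoid genes reached 58.3% on the higher side and cellulose synthesis genes, only 7 in number, 42.9% on the lower side.

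Heat shock genes stood on the higher side. Of 60 with the read minimum, 16 were at least 2-fold higher in both pairs (26.7%, against 4.11% of all genes) and none lower (against 6.69%). The median log2 fold change was 1.02 over the 64 tested. None was called, and 3 rose at the wider threshold (4.69%, against 0.568% of all genes). Their summed level was 22640 and 41980 CPM in AC and 22900 and 35780 CPM in HG6-61. The plastid heat shock gene Solyc05g014280.2 (HSP21) stood at 5.31 and 661 CPM in AC and at 16.5 and 416 CPM in HG6-61 (adjusted p 0.0264), and the heat shock factor Solyc09g065660.2 (HSFA6B) at 0.462 and 10.2 CPM and at 0.719 and 20.9 CPM (adjusted p 0.0381).

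Photosynthesis genes had a median log2 fold change of -1.24 over 69 tested. Of 46 with the read minimum, 9 were at least 2-fold lower in both pairs (19.6%, against 6.69% of all genes) and none higher. The median log2 change of these 46 was -0.12 in the AC pair and -2.21 in the HG6-61 pair. None of the 69 was called and 1 was lower at the wider threshold (1.45%, against 0.824% of all genes). This was Solyc02g063150.2, close to the Rubisco small subunit AT5G38420 (16.6 and 1.71 CPM in AC, 41.7 and 1.99 CPM in HG6-61, edgeR adjusted p 0.0214). The summed level of the photosynthesis genes went up in the AC pair, from 2485 to 4013 CPM. It went down in the HG6-61 pair, from 4791 to 1678 CPM. Both libraries at 35 DAF thus had the higher sum of their pair. None of the 9 chlorophyll breakdown genes and none of the 13 abscisic acid genes tested passed either threshold. Of 44 ascorbate genes 1 fell at the wider threshold (2.27%, against 0.824% of all genes). Ribosomal protein genes (64 tested) passed neither.

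Markers of seed were present in these pericarp libraries. The 24 seed marker genes summed to 27860 CPM in AC at 28 DAF and 7257 at 35 DAF, and to 8555 CPM in HG6-61 at 35 DAF and 1812 at 42 DAF, while the youngest libraries held 80.5 CPM in AC and 84.1 CPM in HG6-61. The storage protein gene Solyc09g025210.2 (CRU1) stood at 6940 and 1103 CPM in AC and at 1414 and 70.7 CPM in HG6-61 (adjusted p 0.0842), and no seed marker was called or at 0 in all 4 libraries. The sum in AC at 28 DAF rested largely on CRU1-like genes at 3574 to 7454 CPM each, and the list was split. Of 19 markers with the read minimum, 6 were at least 2-fold lower in both pairs (31.6%, against 6.69% of all genes). Another 2 were higher (10.5%, against 4.11%). The median log2 change of the 19 was -0.05 in the AC pair and -1.36 in the HG6-61 pair. Among those that rose, the late embryogenesis gene Solyc09g008770.2 (ECP63) stood at 231 and 564 CPM and at 142 and 352 CPM. In pooled tissue, fewer seed cells and less RNA per seed cell cannot be told apart, and the part that seed RNA has in the genes lower at onset was not tested.

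**Figure D4:**
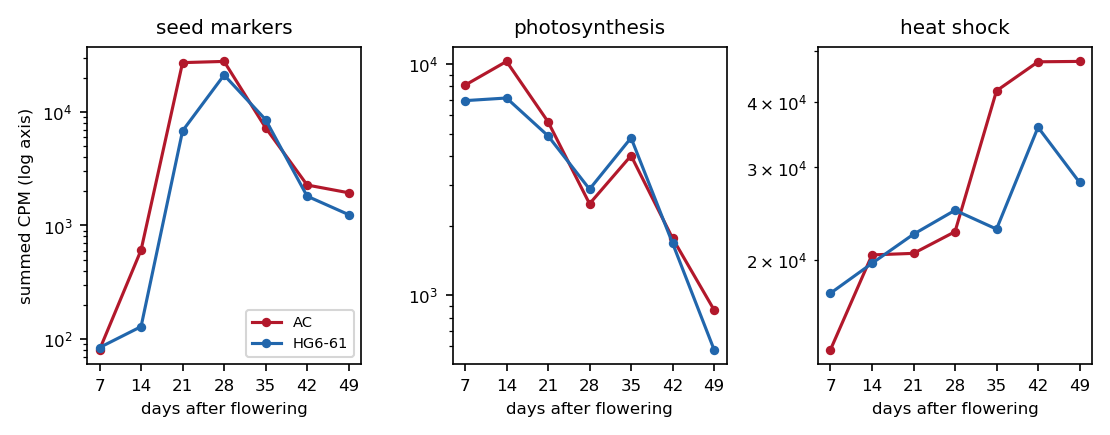
Summed CPM of the seed marker, photosynthesis and heat shock lists in all 14 libraries against days after flowering, on log axes, for AC (red) and HG6-61 (blue). Seed markers decline from 28 DAF on in both cultivars, photosynthesis genes have a second rise at 35 DAF in both, and heat shock genes step up at onset in each cultivar, which is 35 DAF in AC and 42 DAF in HG6-61.

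The 10 libraries outside the comparison showed how the same genes behaved at other stages. The later libraries AC 42 DAF and HG6-61 49 DAF were compared with the earlier libraries AC 21 DAF and HG6-61 28 DAF. In the edgeR fit of these 10 libraries HG6-61 was set 1 interval later at every stage, unlike in the main fit. These libraries had taken part in the filter, the cultivar term and the dispersion of the fit that called the 30 genes, so for those genes the counts are a description. Of the 21 genes called higher, 20 were at least 2-fold higher there in both cultivars, and edgeR on these 10 libraries called 17 of them higher and none lower, against 0.558% of the genes it tested. Of the 9 genes called lower, all were at least 2-fold lower in both cultivars and 6 were called lower, against 1.69% of all genes tested. Of the 21, the exception was CHS2 (Solyc05g053550.2), which stood at 18.1 CPM in AC at 42 DAF and 25.9 CPM in HG6-61 at 49 DAF. It was highest at onset in AC (199 CPM) but at 14 DAF in HG6-61 (214 CPM). Genes called from the 4 libraries alone were followed as well, a step added after the data were seen. Of the 54 higher ones, 41 were at least 2-fold higher in the later libraries of both cultivars and 22 were called higher on the 10 libraries. Of the 39 lower ones, 35 were at least 2-fold lower and 18 were called lower. Of the 577 genes at least 2-fold higher in both pairs, 57.5% were at least 2-fold higher in the later libraries of both cultivars, against 6.79% of all genes with the read minimum. Of the 938 lower ones, 67.8% were lower there, against 12.95%.

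Most genes called higher had their highest level in the onset library, which the choice of genes favours. In AC, 16 of the 21 genes called higher had their highest level at 35 DAF, and in HG6-61 15 had it at 42 DAF. QRT2 (Solyc10g080210.1) went in AC from 1736 CPM at onset to 342 CPM 1 interval later and 8.18 CPM in the last library, and from 1575 to 393 CPM in HG6-61 by 49 DAF. SABP3 (Solyc02g067750.2) went on upwards instead, to 61.6 and 114 CPM in AC and 123 CPM in HG6-61. Of the genes called lower, 8 of 9 stood at no more than 2.49 CPM in the libraries after onset. The ninth, Solyc00g227860.1, did not stay down, as it reached 12.1 CPM in AC at 49 DAF, above its 10.6 CPM before onset.

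**Figure D5:**
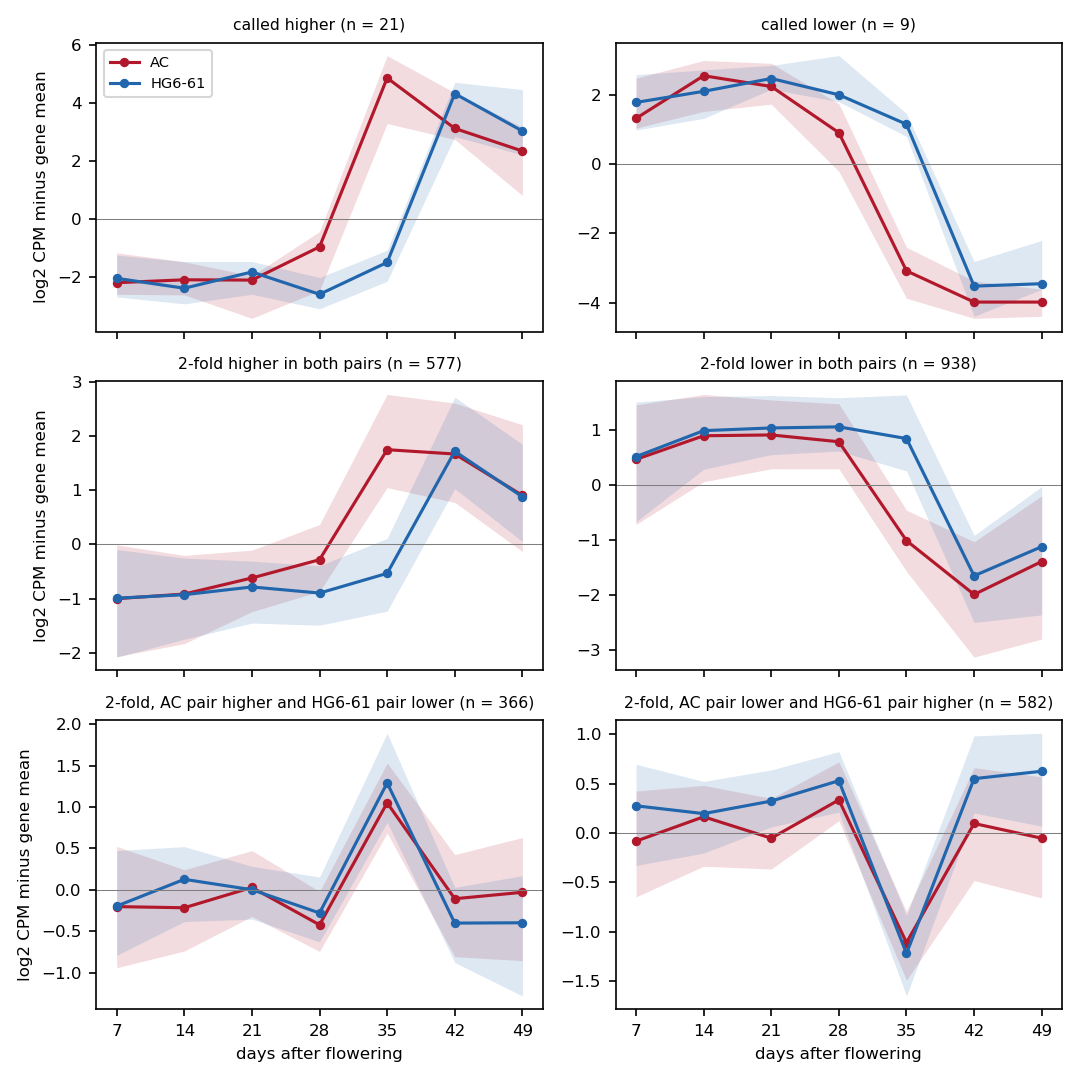
Median (line) and interquartile range (band) over genes of log2 CPM minus each gene's mean over the 14 libraries, against days after flowering, for AC (red) and HG6-61 (blue). Genes called higher and lower shift 1 interval earlier in AC, as do the 577 and 938 genes changed the same way, while the 366 and 582 genes changed in opposite ways peak or dip at 35 DAF in both cultivars. The step between the 2 libraries of each pair follows from how the genes were chosen.

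The genes that changed in opposite ways in the pairs had a pattern of their own. Because AC at 35 DAF was on the onset side and HG6-61 at 35 DAF on the side before it, a gene that differed at 35 DAF in both cultivars appears with opposite signs. For the 366 genes higher in the AC pair and lower in the HG6-61 pair, the median level relative to each gene's mean was 1.05 (log2) in AC and 1.29 in HG6-61 at 35 DAF, and between -0.42 and 0.13 in the other 12 libraries. For the 582 genes of the other direction it was -1.11 and -1.22 at 35 DAF, and between -0.08 and 0.63 elsewhere. The values at 28, 35 and 42 DAF used by the choice are part of this, and the 10 other libraries are not. The most read of the first set was GRP7 (Solyc01g109660.2), a glycine-rich RNA-binding protein under clock and cold control in Arabidopsis, at 4368 and 11860 CPM in AC and at 15120 and 4522 CPM in HG6-61, and another GRP7-like gene (Solyc10g051390.1) stood at 357 and 1122 CPM and at 2032 and 413 CPM. In the second set, the zinc finger gene ZFAR1 (Solyc05g052570.2) stood at 539 and 54.6 CPM in AC and at 48.1 and 510 CPM in HG6-61. Of the ribosomal protein genes, 6 of 58 were in the first set (10.3%, against 2.61% of all genes), and of the heat shock genes, 5 of 60 in the second (8.33%, against 4.15%).

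The difference between the pairs was tested for each gene in the same edgeR fit, with terms that free both sides of the comparison by cultivar. It called 2 of 19182 genes (0.0104%), both higher in both 35 DAF libraries. Solyc01g007500.2 (PSBB, chromosome 1), close to the plastid gene of a photosystem II protein, whose reads and those of a plastid copy cannot be told apart here, stood at 6.01 and 46.9 CPM in AC and at 633 and 2.49 CPM in HG6-61 (difference of log2 changes 10.93, adjusted p 0.00423). Solyc01g058500.2, with no Arabidopsis match, stood at 9.24 and 146 CPM and at 348 and 16.9 CPM (difference 8.33, adjusted p 0.00641). At an unadjusted p under 0.05 there were 3532 genes, and DESeq2 called 386. The number of calls depended on libraries outside the comparison, as it was 1075 without AC 42 DAF, AC 49 DAF and HG6-61 49 DAF.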

How the data were processed

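The authors removed adaptor, low-quality and short reads, aligned the rest with TopHat against tomato assembly SL2.40, discarded reads with several positions and deposited counts of reads per gene (26397 genes) and RPKM values (reads scaled to gene length and library size). Counts were used, and RPKM served as an alternative alone. Columns were matched to samples by their sample names. edgeR 4.0.16 in R 4.3.3 (TMM factors, filterByExpr, quasi-likelihood test) was fitted to all 14 libraries with aligned stage and cultivar, HG6-61 being set 1 interval later from AC 28 DAF on, which leaves 5 residual degrees of freedom. The pair difference was fitted with 2 further terms and 3 degrees of freedom. Genes were called at the thresholds of the authors' methods, if both pairs moved the same way. Levels are CPM with 0.5 added before logarithms, and SE is the fold change divided by the root of F. DESeq2 1.42.0 was an alternative. Reads lack molecular identifiers, so limits cover counting error only. The comparison, the gene lists and the genes of interest were chosen with earlier results of these data known.

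Genes are named if called (all 30), if the paper names them or lists them as carotenoid genes, if their pair difference was called, or if nearest to the threshold. Members of lists at least 2-fold changed in both pairs and the most read genes of each direction were added after values were seen. The heat shock, cell cycle and ribosomal protein lists were matched by a pattern in the gene symbol. The other lists were matched by closest Arabidopsis identifier or tomato identifier. Alternatives covered normalization, filters, thresholds, alignment, the cultivar term, pseudocount, depth and leaving out each library. Sequences and promoters were not analysed here.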

Additional observations from a re-analysis of the deposited data

Results flagged for a closer look

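Between the cultivars, 2 genes differed in their change at onset by the edgeR test of the difference. For Solyc01g007500.2 (PSBB) the difference of log2 changes, AC minus HG6-61, was 10.93, and for Solyc01g058500.2 it was 8.33, with 1 library on each side of each pair.

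In all, 366 genes, these 2 among them, were at least 2-fold higher at onset in the AC pair and at least 2-fold lower in the HG6-61 pair, and 582 genes were the reverse. With the exception of these 2 genes, the test of the difference called none of them, and for the sets as a whole the difference was not tested. In both sets the libraries that stood apart were those at 35 DAF, which follows in part from how the sets were chosen. The 2 libraries share the day after flowering and their labelled stage, while HG6-61 at 35 DAF is the shallowest library (1461817 reads) and AC at 35 DAF the one with the lowest TMM factor (0.823). With the 4 libraries thinned to equal depth, 845 of 12670 genes changed in opposite ways, against 948 of 14030. With library totals in place of TMM factors the 2 sets held 202 and 843 genes, and on the deposited RPKM 176 and 840. By the paper's read statistics, the 2 libraries at 35 DAF also had the smallest shares of reads in coding sequence of the series. Their shares in the untranslated region after the coding sequence were the largest. Whether stage, depth, this distribution of reads or the TMM factor caused the opposite changes was not tested.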

How the results depend on the processing

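The 30 called genes kept their direction under every refit (420 values over 14 alternatives), and 258 of these values stayed past both thresholds. Genes were called only if both pairs moved the same way, and most refits used the same 4 libraries. The kept direction was therefore largely set by the choice of genes. The main limits are 1 library per cultivar and stage and the small read numbers of the lower genes. The calls, higher and lower, were 21 and 9. They were 54 and 39 with the 4 libraries alone, 154 and 290 with the DESeq2 Wald test, 103 and 137 without a filter on low counts, 109 and 158 at an adjusted p under 0.05 with a log2 fold change beyond 1, and 0 and 4 at calendar stages, 35 against 28 DAF, where the 4 libraries differ. Without the replicate block (cultivar left out) they were 15 and 5, and with library totals in place of TMM factors 21 and 20, where the median of all genes moved to -0.27 from -0.10 (log2). Another 2 alternatives were chosen after seeing the data: 4 and 0 with HG6-61 set 1 interval later at every stage, and 37 and 33 with the libraries after onset left out. Leaving out each of the 4 libraries gave 8 to 13 higher (10 without AC 28 DAF, 11 without HG6-61 42 DAF) and 0 to 23 lower. The causes were not tested. The pair difference called 2 genes, and 0 without the replicate block, 386 with DESeq2, 90 without a filter, 1 with at least 30 reads, 108 at the wider threshold, 0 with HG6-61 later at every stage and 0 with a single term against all other stages (also added). Likewise added, it gave 0 at calendar stages and 1075 with the libraries after onset left out. It has no value with 1 of the 4 libraries left out and no residual degrees of freedom with the 4 alone. Genes changed at least 2-fold the same way numbered 1515, and 2611 without a read minimum and 444 at 4-fold. Those changed in opposite ways numbered 948, 1471 and 98. List medians moved by less than the spread between pairs in 160 of 238 values.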
